A study of Mus musculus with 12 samples.

Results

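The 10 genes described here belong to bone morphogenetic protein (BMP) signalling and the Id family, and were followed in mouse vessels over 7 days of angiotensin II. They were the ligands Bmp2 and Bmp4, the receptor Bmpr2, the secreted antagonist Grem1, the inhibitory SMADs Smad6 and Smad7, and Id1, Id2, Id3 and Id4. A gene was taken by its symbol, from transcript clusters (sets of probes designed to 1 transcribed locus) annotated with that symbol alone, and each of the 10 had 1 such cluster among the 30702 genes of the table. The filter on dim signals let 9 of the 10 into the test, which covered 22066 genes, and kept Bmp2 out. Total RNA came from vessels of male C57BL/6 mice aged 8 to 10 weeks. Mice received angiotensin II, the pressor peptide of the renin-angiotensin system, at 1500 ng per kg per min for 1, 3 or 7 days, or were left untreated (day 0), and each of the 4 groups has 3 arrays that the labels call biological replicates. The peptide was delivered by an osmotic pump in Ringer's solution, given as acetic acid in saline. The sources used here name neither the type of vessel nor a vehicle pump, so the effect of pump surgery and that of angiotensin II cannot be told apart.

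BMPs are secreted ligands of the transforming growth factor beta superfamily that bring type I and type II receptors together on the cell surface, where the type II receptor activates the type I receptor. The activated receptor phosphorylates SMAD1, SMAD5 and SMAD9, which enter the nucleus with SMAD4 and switch on target genes, among them the Id genes and the feedback inhibitors Smad6 and Smad7. Id proteins bind basic helix-loop-helix factors and keep them off DNA. In the vessel wall the pathway acts in endothelium and smooth muscle, and in humans loss-of-function variants of BMPR2 cause heritable pulmonary arterial hypertension.

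RefSeq promoter entries of the mouse build GRCm38.p6, each running from 250 bases before to 50 bases after a gene's start, were found for 7 of the 10 genes (Bmp4, Bmpr2, Grem1, Smad6, Id2, Id3 and Id4). The promoters below are of 4 genes that fell by day 7 and of Id3, which did not pass the test at any day. Capitals mark the motifs searched, the BMP-responsive GGCGCC and the SMAD-binding palindrome GTCTAGAC, both of which read the same on both strands and do not overlap each other.
Id2: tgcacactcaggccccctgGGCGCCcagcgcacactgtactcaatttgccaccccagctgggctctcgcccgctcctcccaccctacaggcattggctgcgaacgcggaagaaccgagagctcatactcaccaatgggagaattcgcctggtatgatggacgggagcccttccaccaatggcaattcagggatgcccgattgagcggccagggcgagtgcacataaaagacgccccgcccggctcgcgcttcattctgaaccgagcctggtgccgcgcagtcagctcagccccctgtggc
Id4: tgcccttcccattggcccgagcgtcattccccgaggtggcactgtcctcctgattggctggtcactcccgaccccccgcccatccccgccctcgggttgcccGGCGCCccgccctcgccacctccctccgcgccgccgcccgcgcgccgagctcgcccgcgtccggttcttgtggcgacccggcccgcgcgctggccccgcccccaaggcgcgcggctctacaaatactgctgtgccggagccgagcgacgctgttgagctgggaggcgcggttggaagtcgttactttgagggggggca
Bmpr2: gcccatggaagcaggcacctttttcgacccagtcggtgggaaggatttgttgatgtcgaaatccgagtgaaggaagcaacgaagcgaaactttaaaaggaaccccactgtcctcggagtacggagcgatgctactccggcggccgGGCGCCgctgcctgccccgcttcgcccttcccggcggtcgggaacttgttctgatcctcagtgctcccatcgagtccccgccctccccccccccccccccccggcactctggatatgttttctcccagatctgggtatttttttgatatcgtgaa
Smad6: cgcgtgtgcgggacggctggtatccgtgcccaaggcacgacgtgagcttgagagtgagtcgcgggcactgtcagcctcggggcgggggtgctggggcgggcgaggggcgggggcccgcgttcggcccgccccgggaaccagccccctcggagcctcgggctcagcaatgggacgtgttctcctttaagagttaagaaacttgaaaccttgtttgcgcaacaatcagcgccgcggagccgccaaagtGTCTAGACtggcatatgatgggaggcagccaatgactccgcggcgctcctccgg
Id3: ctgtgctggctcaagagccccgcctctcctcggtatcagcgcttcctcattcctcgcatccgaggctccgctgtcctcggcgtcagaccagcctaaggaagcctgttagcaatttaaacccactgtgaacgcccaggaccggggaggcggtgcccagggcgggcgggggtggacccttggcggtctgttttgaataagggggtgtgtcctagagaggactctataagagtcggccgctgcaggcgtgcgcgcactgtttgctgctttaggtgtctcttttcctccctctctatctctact
The Id2 promoter lies at chr12:25096043-25096342 on the minus strand and its GGCGCC begins at position -231 from the start. The Id4 promoter, at chr13:48260866-48261165 on the plus strand, has GGCGCC at -148, and that of Bmpr2, at chr1:59764029-59764328 on the plus strand, has it at -105. Smad6, at chr9:64022010-64022309 on the minus strand, has GTCTAGAC at -4. Neither motif is in the window of Id3, at chr4:136143572-136143871 on the plus strand, or in that of Bmp4, and the Grem1 window has GGCGCC at -78. GGCGCC occurs in 3898 of the 32851 promoter entries of the table (11.9%) and GTCTAGAC in 70 (0.213%). These matches describe the letters of the windows, and no binding was measured.

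Values are log2 signals as deposited, so a difference of 1 is a 2-fold difference. Pearson r between arrays lay between 0.974 and 0.993 within groups and between 0.932 and 0.991 across groups. Signal over background, taken as the control gap, the median of the positive minus that of the negative controls, ranged over 1.94 to 2.51 log2 units on day 1, 1.83 to 2.11 on day 3 and 1.20 to 2.10 on day 7, and over 2.56 to 2.64 on untreated arrays. Its lowest value came from day 7 replicate 1. An exact permutation test (two-sided) gave p = 0.1 on each treated day, which is as small as 6 arrays can give. The median of all transcript clusters moved the other way, by 0.18 at day 3 and 0.27 at day 7 against day 0. Of the 10 genes, Bmp2 and Grem1 were dimmer than the median negative control on every array, and the other 8 were brighter on every array. Against the 95th percentile of the negative controls, Bmpr2 was brighter on 11 of the 12 arrays, Id2 on 9, Bmp4 on 2, Id1 on 1, and Smad6, Smad7, Id3 and Id4 on 0. The labels name no animals, so p-values measure the spread between these arrays, and their number limits the precision of every estimate.

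Of the 9 tested genes up to 5 fell, and none rose against day 0 on any day. At day 1 none passed the test (limma, Benjamini-Hochberg adjusted p under 0.05 over all genes), where 3.62% of all tested genes did, and 4 of the 9 and 16.4% of all genes had an unadjusted p under 0.05. At day 3 Id2 and Id4 fell, 2 of 9 genes, while 7.14% of all tested genes fell. At day 7 Id2, Bmpr2, Id4, Smad6 and Smad7 fell, 5 of 9 genes, while 13.2% of all tested genes fell. With the control gap as a covariate, 0 of the 9 passed at days 3 and 7, where 464 and 771 of the 22066 genes tested did. The median log2 change of the 9 genes was -0.26 at day 1, -0.17 at day 3 and -0.995 at day 7, and that of all genes tested was 0.01, 0.08 and 0.09. The 3 comparisons share the day 0 arrays. Of all genes called at day 7, 52.1% were lower as deposited, 76.7% after quantile normalization and 79.3% after centring each array on its median, and the 9 genes then gave 5, 5 and 6 lower and none higher. In the F test over the 3 comparisons, which 14.6% of all genes passed, Id2, Bmpr2, Bmp4 and Id4 passed (limma adjusted p = 0.0126, 0.0169, 0.029 and 0.0309) and Smad6 had an adjusted p of 0.0506.

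**Figure D1:**
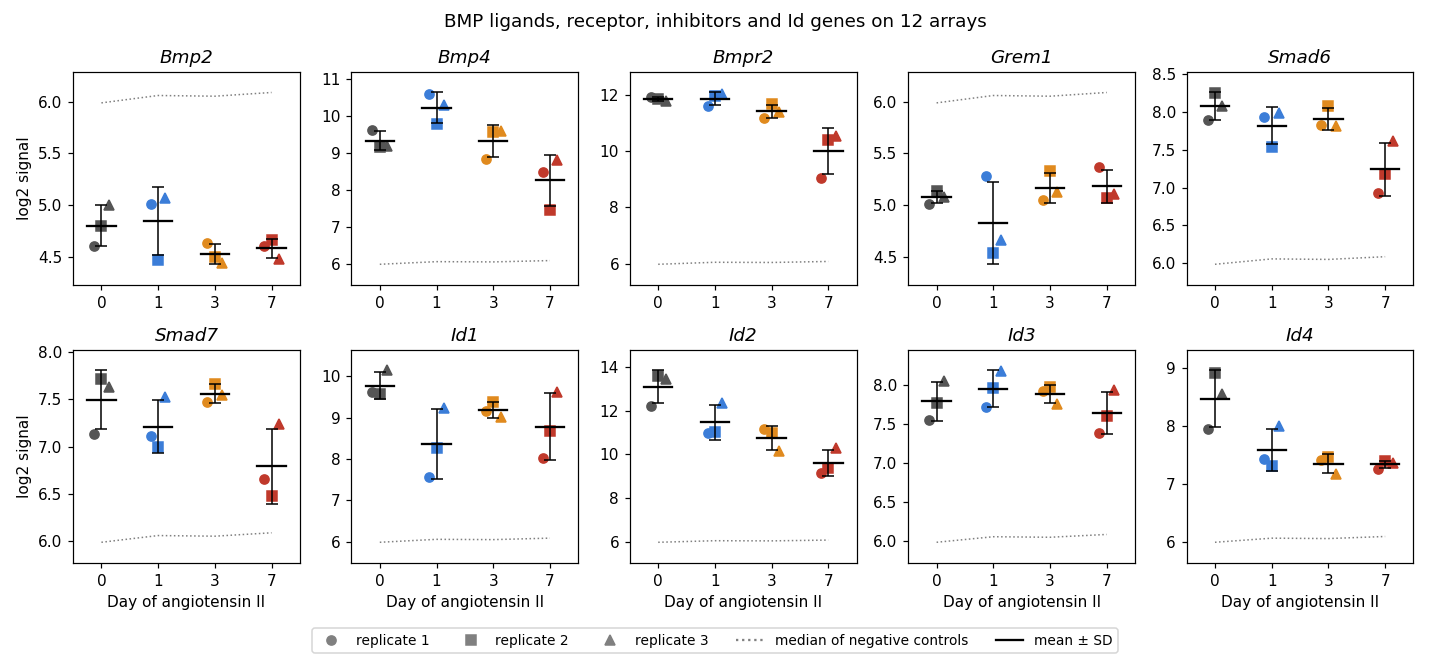
Log2 signal of each of the 10 genes on the 12 arrays, by day of angiotensin II (day 0 is untreated), with a symbol per replicate, the mean and SD of 3 arrays in black and the mean negative control median as a dotted line. Each panel has its own axis. Bmp2 and Grem1 sit under the dotted line throughout, and Id2 averages 9.61 at day 7 and 13.09 at day 0.

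Bmp4, a ligand made by endothelial and mesenchymal cells, was the only one of the 10 genes with its 3 arrays above all day 0 arrays at day 1, and all 3 lay below them at day 7. Its signal was 9.62, 9.16 and 9.20 at day 0, 10.60, 9.79 and 10.29 at day 1, 8.83, 9.58 and 9.58 at day 3 and 8.48, 7.47 and 8.82 at day 7. The log2 change was 0.90 ± 0.36 at day 1 (± SE of the limma estimate, here and below; adjusted p = 0.242) and -1.07 ± 0.36 at day 7 (adjusted p = 0.05495), so neither comparison with day 0 passed. Arrays that lie wholly above day 0 at day 1 were found for 11.8% of all genes tested, and wholly below at day 7 for 20.5%. The change at day 7 passed in 1 of the 12 fits that left out 1 array (adjusted p up to 0.149), with day 7 replicate 3 left out (-1.35, adjusted p = 0.0258). It passed in 2 of 10 other settings (adjusted p up to 0.2015). These were centring each array on its median (-1.35, adjusted p = 0.0189) and a filter at the 60th percentile (-1.07, adjusted p = 0.0494). Between the treated days Bmp4 fell, averaging 8.26 ± 0.70 at day 7 and 10.23 ± 0.41 at day 1 (SD, n = 3 arrays each), a difference of -1.97 ± 0.36 or 3.93-fold lower (limma adjusted p = 0.0248). That comparison was added after the values had been seen, its direction follows from where the arrays of both days lay, and Bmp4 did not pass in it on the 6 arrays alone (adjusted p = 0.2) or with the control gap as a covariate (0.0546). In the fit to all 12 arrays Bmp4 and Bmpr2 were the 2 of 9 genes that fell, while 2.91% of all genes did. Both calls were lost without day 1 replicate 2 (adjusted p = 0.0647 for Bmp4 and 0.0981 for Bmpr2) and without day 1 replicate 3 (0.0801 and 0.0814). Over all genes that comparison gave 1056 calls, against 43 without day 1 replicate 2 and 180 without day 1 replicate 3. It gave 2 on the 6 arrays alone and 363 with the control gap as a covariate.

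Bmp2, a ligand that induces bone and is made by activated endothelium, ranged from 4.60 to 5.0035 at day 0, from 4.47 to 5.07 at day 1, from 4.45 to 4.63 at day 3 and from 4.49 to 4.67 at day 7. No array reached the filter value of 5.25, so Bmp2 had no test, and its level lies within the background of the arrays. With no filter its log2 change at day 7 was -0.22 ± 0.16 (adjusted p = 0.325 over 30702 genes).

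Bmpr2, the type II receptor of the pathway, kept its day 0 level at day 1 to within 0.01 log2 units and was 3.62-fold lower at day 7. The arrays read 11.92, 11.85 and 11.78 at day 0, 11.58, 11.94 and 12.01 at day 1, 11.17, 11.66 and 11.37 at day 3 and 9.05, 10.40 and 10.53 at day 7. All 3 arrays of day 3 and all 3 of day 7 lay below day 0, while those of day 1 lay on both sides. The log2 change was -0.01 ± 0.34 at day 1 (95% interval -0.76 to 0.75), -0.45 ± 0.34 at day 3 (adjusted p = 0.39) and -1.86 ± 0.34 at day 7 (adjusted p = 0.006). Bmpr2 was called lower at day 7 in each of the 12 fits that left out 1 array (log2 change between -2.13 and -1.39). The lowest value belonged to day 7 replicate 1, the array with the lowest signal over background, and without it the change was -1.39 (adjusted p = 0.00187). With the control gap as a covariate the change was -0.76 and no longer passed (adjusted p = 0.178).

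Grem1, gremlin, which binds BMP2, BMP4 and BMP7 and blocks their access to receptors, passed the filter on 3 arrays alone. Its signal was 5.02, 5.14 and 5.08 at day 0, 5.28, 4.54 and 4.67 at day 1, 5.05, 5.33 and 5.13 at day 3 and 5.37, 5.07 and 5.11 at day 7. The groups overlapped at each day. The log2 change at day 7 was 0.10 ± 0.18 (95% interval -0.30 to 0.50, adjusted p = 0.675), and a change of a transcript this close to background could go unseen.

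Smad6 and Smad7, the inhibitory SMADs that block receptor signalling, were both lower at day 7 and at neither day 1 nor day 3 by the test. Smad6 read 7.89, 8.25 and 8.08 at day 0, 7.93, 7.54 and 7.98 at day 1, 7.83, 8.07 and 7.81 at day 3 and 6.93, 7.18 and 7.61 at day 7. Its day 7 arrays all lay below day 0, and the mean was 7.24 ± 0.35 at day 7 and 8.07 ± 0.18 at day 0 (SD, n = 3 arrays each). That is a log2 change of -0.83 ± 0.19, or 1.78-fold lower (limma adjusted p = 0.0144), which held in 11 of the 12 fits that left out 1 array and not without day 0 replicate 2 (-0.74, adjusted p = 0.0517). Smad6 did not pass with the control gap (-0.46, adjusted p = 0.38) or the mean of the adipocyte markers (-0.76, adjusted p = 0.0828) as a covariate. On the 6 arrays alone its adjusted p was 0.0549. Smad7, which also blocks transforming growth factor beta receptors, read 7.14, 7.71 and 7.63 at day 0, 7.11, 6.99 and 7.53 at day 1, 7.47, 7.66 and 7.54 at day 3 and 6.65, 6.48 and 7.24 at day 7. Here day 7 replicate 3 overlapped day 0, and the change of -0.70 ± 0.23, 1.63-fold lower, lay close to the threshold (adjusted p = 0.0478). The Smad7 call was lost in 9 of the 12 fits without 1 array, those that kept it being without day 0 replicate 1, day 1 replicate 3 or day 7 replicate 3 (adjusted p from 0.0128 to 0.136 over the 12). It held in 6 of 10 other settings. Smad7 did not pass with the control gap (-0.37, adjusted p = 0.616) or the adipocyte mean (-0.48, adjusted p = 0.249) as a covariate. With no filter its adjusted p was 0.0559, and on the 6 arrays alone 0.113.

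**Figure D2:**
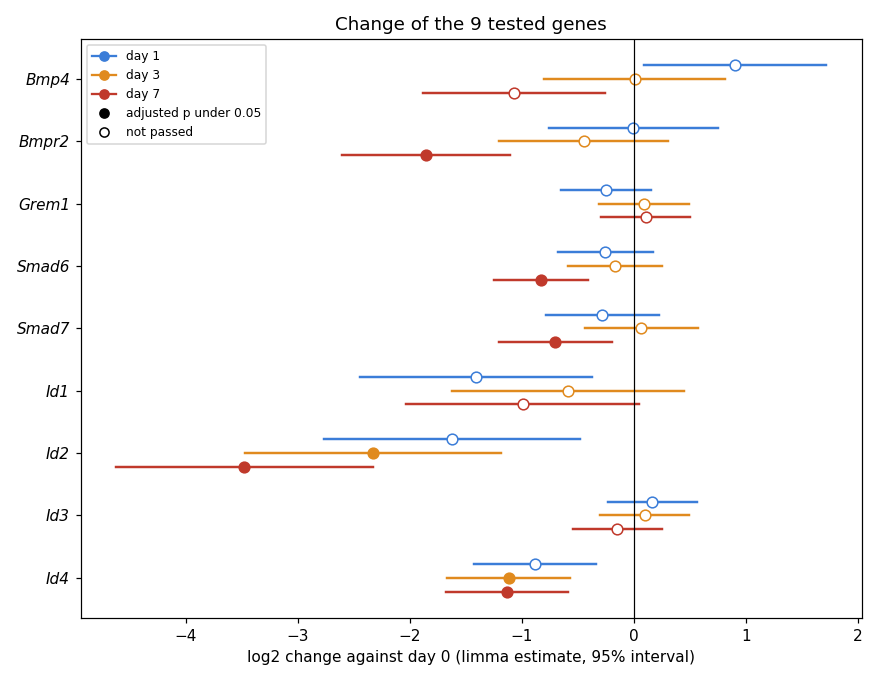
Log2 change of the 9 tested genes at days 1, 3 and 7 against day 0, as limma estimates with 95% intervals. Filled points passed the adjusted threshold and open points did not. Id2 lies farthest to the left at each day, and Bmp4 is at 0.90 at day 1 and -1.07 at day 7.

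Of the 4 Id genes, Id2 and Id4 passed the test on at least 1 day and Id1 and Id3 on none. Id2, which restrains differentiation in many lineages, had a lower mean at each later day. Its arrays read 12.23, 13.58 and 13.46 at day 0, 10.98, 11.04 and 12.37 at day 1, 11.16, 10.98 and 10.14 at day 3 and 9.17, 9.37 and 10.30 at day 7. Only day 1 replicate 3 reached into the range of day 0, and the arrays of days 3 and 7 all lay below it. The log2 change was -1.62 ± 0.51 at day 1 (adjusted p = 0.127), -2.33 ± 0.51 at day 3 (5.03-fold lower, adjusted p = 0.0211) and -3.48 ± 0.51 at day 7 (11.1-fold lower, adjusted p = 0.0027). Neither step between treated days passed, at -0.71 for day 3 against day 1 (adjusted p = 0.63) and -1.15 for day 7 against day 3 (adjusted p = 0.386). The day 7 call held in all 12 fits without 1 array, and not with the control gap as a covariate (-2.28, adjusted p = 0.106). The day 3 call was lost without day 0 replicate 2 or 3 (adjusted p = 0.0762 and 0.0788) and without day 3 replicate 2 or 3 (0.0561 and 0.0866). Over all genes those fits gave 702 to 1038 calls, against 2593 from all 12 arrays.

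Id4, best known from neural and mammary progenitors, passed as lower at days 3 and 7. It read 7.94, 8.91 and 8.56 at day 0, 7.44, 7.31 and 8.01 at day 1, 7.42, 7.47 and 7.17 at day 3 and 7.26, 7.39 and 7.36 at day 7. Day 0 replicate 1 lay under day 1 replicate 3, and all arrays of days 3 and 7 lay below day 0. The log2 change was -0.89 ± 0.24 at day 1 (adjusted p = 0.0849), -1.12 ± 0.24 at day 3 (2.17-fold lower, adjusted p = 0.0207) and -1.13 ± 0.24 at day 7 (2.19-fold lower, adjusted p = 0.0118). Day 3 against day 1 was -0.23 ± 0.24 (adjusted p = 0.702), so the arrays do not resolve a difference between these days. At day 1 Id4 passed without day 0 replicate 1 (-1.15, adjusted p = 0.0392) and without day 1 replicate 3 (-1.10, adjusted p = 0.0395). Its day 3 call was lost in the same 4 fits as that of Id2 (adjusted p from 0.0546 to 0.0849), and its day 7 call held in all 12. With the control gap as a covariate Id4 passed at neither day 3 nor day 7 (-0.87 and -0.80, adjusted p = 0.183 and 0.29). The mean of the adipocyte markers as a covariate gave no call on these days either (-0.74 and -0.91, adjusted p = 0.543 and 0.077).

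Id1, the Id gene most often used as a readout of BMP receptor activity in endothelium, varied widely between arrays of 1 group. It read 9.61, 9.56 and 10.14 at day 0, 7.56, 8.27 and 9.24 at day 1, 9.16, 9.38 and 9.004 at day 3 and 8.02, 8.68 and 9.63 at day 7. The arrays of days 1 and 3 all lay below day 0, and day 7 replicate 3 did not. The log2 change was -1.41 ± 0.46 at day 1 (adjusted p = 0.145), -0.59 ± 0.46 at day 3 (adjusted p = 0.411) and -0.995 ± 0.46 at day 7 (adjusted p = 0.127), so Id1 passed on no day. Of the 12 fits that left out 1 array, Id1 passed in 1 at day 1, without day 1 replicate 3 (-1.85, adjusted p = 0.0472). At day 7 it passed in 1, without day 7 replicate 3 (-1.42, adjusted p = 0.0374). Those arrays held its highest value in each group, so leaving them out had to deepen the fall. In 10 other settings Id1 passed in 0 on each day. With the control gap as a covariate its change was 0.46 at day 3 and 0.44 at day 7 (adjusted p = 0.574 and 0.651). With the adipocyte mean as a covariate it was 0.40 at day 3 (adjusted p = 0.936). Arrays that lie wholly below day 0 were found for Id1 alone among the 9 genes at day 1, where 11.5% of all genes showed this. At day 3 they were found for 4 of 9 genes (Id1, Id2, Id4 and Bmpr2; 21.4% of all genes) and at day 7 for 5 of 9 (Id2, Id4, Bmpr2, Bmp4 and Smad6; 20.5% of all genes).

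Id3, known from vascular smooth muscle and lymphocytes, showed no change that the arrays could resolve. It read 7.56, 7.77 and 8.06 at day 0, 7.72, 7.96 and 8.19 at day 1, 7.93, 7.98 and 7.76 at day 3 and 7.39, 7.61 and 7.93 at day 7, with overlap at each day. Its log2 change was 0.16 ± 0.18 at day 1, 0.09 ± 0.18 at day 3 and -0.15 ± 0.18 at day 7 (adjusted p = 0.797, 0.735 and 0.527). The 95% interval at day 7 ran from -0.54 to 0.25, so a fall as large as that of Id2 or Id4 lay outside it. The difference between the Id genes was not tested.

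Comparisons between treated days other than that of day 7 with day 1 gave no calls among the 9 genes. Day 3 against day 1 gave 0 calls among the 9 genes and 0 among all genes tested (0%) in limma, with 1 of 9 genes (Bmp4) and 8.05% of all genes (1776) at an unadjusted p under 0.05. Day 7 against day 3 gave 0 calls among the 9 genes, against 0.267% of all genes. There 5 of 9 genes and 12.9% of all genes had an unadjusted p under 0.05, the 5 being Bmpr2, Smad6, Smad7, Bmp4 and Id2. Bmpr2 had the largest change of them at day 7 against day 3, -1.41 ± 0.34 (adjusted p = 0.128), and it passed without day 7 replicate 1 (-0.94, adjusted p = 0.0344).

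A further 63 genes of the pathway were grouped by role, and 49 of them were tested. At day 1 3 of the 49 rose and 5 fell, at day 3 2 rose and 10 fell, and at day 7 2 rose and 17 fell, with median log2 changes of -0.04, -0.18 and -0.30. The shares of all genes that rose were 1.99%, 4.61% and 12.1% at these days, and those that fell were 1.63%, 7.14% and 13.2%. With the control gap as a covariate 3 of the 49 fell at day 7, namely Bmpr1a, Neo1 and Twsg1, and none rose. That fit gave 2 higher and 2 lower at day 1 and 0 and 2 at day 3. Over all genes tested it gave 637 higher and 367 lower at day 1, 272 and 192 at day 3, and 486 and 285 at day 7. With the adipocyte mean as a covariate none passed at days 1 and 3, and 9 fell and none rose at day 7. Of all 22066 genes, 0 passed in that fit at day 1 and 15 at day 3, and 1117 fell and 515 rose at day 7. Centring each array gave 3 higher and 2 lower at day 1, 1 and 9 at day 3, and 2 and 26 at day 7. Centring also moved the counts over all 22066 genes, to 289 higher and 147 lower, 472 and 1579, and 1264 and 4842 at these days. Leaving out 1 array gave 0 to 7 lower at day 1, 5 to 13 at day 3, where each day 0 and each day 3 array left out gave 5 or 6, and 14 to 19 at day 7. The counts higher were then 0 to 3, 1 to 3 and 0 to 4.

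Of 11 other receptors and co-receptors tested, 3 fell at day 1, 5 at day 3 and 4 at day 7, and none rose. Among all genes tested 1.63%, 7.14% and 13.2% fell on these days. Bmpr1a, the type I receptor that pairs with Bmpr2, read 12.36, 12.22 and 12.60 at day 0, 10.47, 10.77 and 11.05 at day 1, 10.10, 10.59 and 10.04 at day 3 and 8.85, 9.24 and 9.68 at day 7. No treated array reached the range of day 0. Its log2 change was -1.63 ± 0.24 at day 1, -2.15 ± 0.24 at day 3 and -3.14 ± 0.24 at day 7 (limma adjusted p = 0.011, 0.00252 and 0.000385). The calls of days 3 and 7 held in all 12 fits without 1 array and that of day 1 in 10, being lost without day 0 replicate 3 or day 1 replicate 2 (adjusted p up to 0.0566). Unlike those of the 9 genes, its calls of all 3 days also held with the control gap as a covariate (-1.36, -1.67 and -2.48, adjusted p = 0.0157, 0.0212 and 0.0103). With the adipocyte mean as a covariate the call of day 7 held (-2.93, adjusted p = 0.00221) and those of days 1 and 3 did not (adjusted p = 0.34 and 0.133). Neo1, neogenin, a receptor of repulsive guidance molecules that act as BMP co-receptors, changed by -1.94 ± 0.35, -2.67 ± 0.35 and -3.01 ± 0.35 and passed on all 3 days. The day 1 call of Neo1 held in 8 of the 12 fits without 1 array (adjusted p up to 0.0801). With the control gap as a covariate Neo1, like Bmpr1a, passed on all 3 days (adjusted p = 0.0207, 0.0254 and 0.0241). Bmpr1b, another type I receptor, changed by -0.76, -0.96 and -1.09 and passed on all 3 days. Its day 1 call held in 3 of those 12 fits (adjusted p up to 0.158), and with the control gap as a covariate it passed on no day (adjusted p = 0.0766, 0.0863 and 0.0892). Bambi, a decoy receptor, passed at day 3 (-0.98, in 8 of the 12 fits without 1 array) and day 7 (-1.11, in all 12). Eng, the endothelial co-receptor endoglin, was at 1.08 ± 0.34 at day 1 and did not pass (adjusted p = 0.128).

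**Figure D3:**
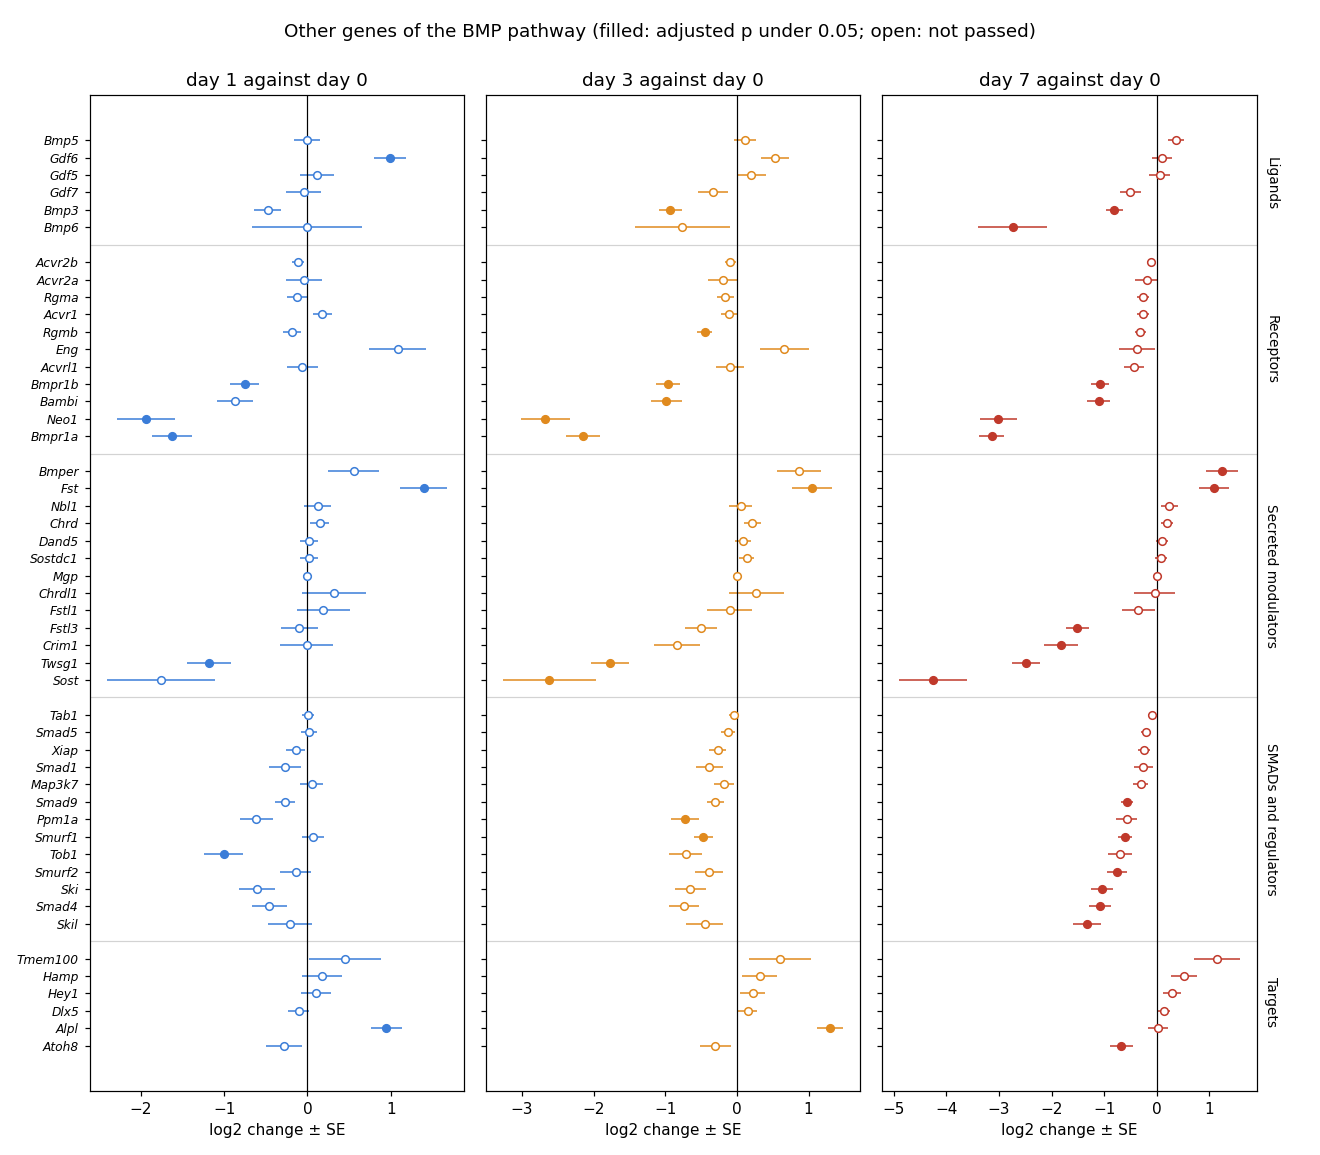
Log2 change with SE of 49 further pathway genes at days 1, 3 and 7 against day 0, grouped by role, each panel with its own axis. Filled points passed the adjusted threshold. Bmpr1a, Neo1 and Twsg1 are filled in all 3 panels, at -3.14, -3.01 and -2.49 at day 7.

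Among 13 secreted modulators tested, members moved in both directions. At day 7 Sost, Twsg1, Crim1 and Fstl3 fell and Fst and Bmper rose. Twsg1, twisted gastrulation, which helps chordin hold BMPs, changed by -1.19, -1.77 and -2.49 ± 0.27 and passed on all 3 days. Its day 1 call held in 3 of the 12 fits without 1 array (adjusted p up to 0.160), those of days 3 and 7 in all 12, and with the control gap as a covariate it passed at day 7 alone (adjusted p = 0.0632, 0.055 and 0.0269). Sost, sclerostin, known as a Wnt inhibitor of bone and related to the BMP antagonists, read 6.49, 5.67 and 7.86 at day 7, against 10.58, 11.47 and 10.70 at day 0, a change of -4.25 ± 0.65 (adjusted p = 0.00309). Fst, follistatin, an antagonist of activins and some BMPs, rose by 1.39 ± 0.28 at day 1, 1.05 ± 0.28 at day 3 and 1.09 ± 0.28 at day 7 (adjusted p = 0.0313, 0.0427 and 0.0249). The Fst calls held in 6, 4 and 8 of the 12 fits without 1 array at days 1, 3 and 7 (adjusted p up to 0.101, 0.127 and 0.0806), and each was lost without any 1 of the day 0 arrays. Bmper, a BMP-binding endothelial regulator, rose by 1.25 ± 0.30 at day 7 (adjusted p = 0.0198), lost without day 0 replicate 2 or 3 (adjusted p up to 0.0621). Mgp, matrix Gla protein, which binds BMPs, was saturated on every array, at the top of the scale, so a change of it could not be read.

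Of the 6 other ligands tested 1 rose at day 1, 1 fell at day 3 and 2 fell at day 7. Among all genes tested 1.99% rose at day 1, and 1.63%, 7.14% and 13.2% fell at days 1, 3 and 7. Gdf6 was 0.99 ± 0.19 higher at day 1 (adjusted p = 0.0285), a call lost without any 1 of the day 0 arrays or day 1 replicate 2 or 3 (adjusted p up to 0.118) and with the adipocyte mean as a covariate (0.283). Bmp3, which opposes other BMPs, fell at day 3 (-0.93) and day 7 (-0.81), and Bmp6 fell at day 7 (-2.74 ± 0.66, adjusted p = 0.0188). The Bmp6 call was lost without day 0 replicate 1 or 3 or day 7 replicate 1 or 2 (adjusted p up to 0.0626). Of 13 SMADs and intracellular regulators 1 fell at day 1, 2 at day 3 and 6 at day 7. At day 7 these were the transcriptional repressors Skil (-1.33) and Ski (-1.04), the common partner Smad4 (-1.07), the ubiquitin ligases Smurf2 (-0.75) and Smurf1 (-0.60), and the receptor-activated Smad9 (-0.56). None of these 6 passed at day 7 with the control gap as a covariate (adjusted p from 0.135 to 0.68). With the adipocyte mean as a covariate none of them did either (adjusted p from 0.0556 to 0.124). The Smurf2 call was also lost without any 1 of the day 0 arrays, and those of the others held in all 12 fits without 1 array. Smad1 and Smad5, which carry the receptor signal, did not pass at any day, with changes of -0.25 ± 0.19 and -0.20 ± 0.10 at day 7.

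Of the further target genes 6 were tested. Alpl, tissue-nonspecific alkaline phosphatase, rose by 0.94 ± 0.19 at day 1 and 1.30 ± 0.19 at day 3 (adjusted p = 0.0293 and 0.0053) and was at 0.02 ± 0.19 at day 7. The day 1 call held in 7 of the 12 fits without 1 array (adjusted p up to 0.114) and that of day 3 in all 12. Its arrays read 6.14, 6.18 and 6.02 at day 0, 6.73, 7.51 and 6.94 at day 1, 7.33, 7.34 and 7.58 at day 3 and 6.37, 6.03 and 6.02 at day 7. Atoh8, a transcription factor downstream of BMP receptors, fell by 0.67 ± 0.21 on the log2 scale at day 7 (adjusted p = 0.0463), a call that held in 2 of the 12 fits without 1 array (adjusted p from 0.0119 to 0.143). The 4 others, Hey1, Dlx5, Tmem100 and Hamp, did not pass at any day. Of the partners of Id proteins 4 were tested, and at day 7 the E protein Tcf4 rose by 0.63 ± 0.20 (adjusted p = 0.0474) and the E protein Tcf12 was at -0.74 ± 0.22, a fall (adjusted p = 0.037). The Tcf4 call held in 1 of the 12 fits without 1 array and that of Tcf12 in 6 (adjusted p up to 0.117 and 0.0938).

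Markers of vessel cells moved over the same days. In this bulk RNA fewer cells of a type and less RNA per cell cannot be told apart. The mean of 12 smooth muscle markers on an array lay between 8.27 and 10.59 at day 7 and between 13.21 and 13.58 at day 0, and 11 of the 12 fell at day 7, 6 at day 3 and 1 at day 1. Their median log2 change was -1.53 at day 1, -2.51 at day 3 and -3.94 at day 7. The mean of 13 endothelial markers lay between 7.77 and 8.38 at day 7 and between 8.46 and 8.96 at day 0, with 2 of 13 lower at day 7 and a median change of -0.35. Of 11 macrophage markers 9 rose at day 1, 10 at day 3 and 10 at day 7, when their mean lay between 8.48 and 9.60, against 7.27 to 7.64 at day 0. The mean of 9 white adipocyte markers lay between 11.57 and 11.90 at day 0, 10.16 and 11.85 at day 1, 10.42 and 11.03 at day 3 and 11.19 and 11.63 at day 7. That of 9 brown adipocyte markers lay between 7.86 and 8.20 at day 0, 6.83 and 7.46 at day 1, 7.21 and 7.71 at day 3 and 6.81 and 7.83 at day 7. No smooth muscle marker was dimmer than the median negative control throughout a group. The part of these cell types in the changes of the 9 genes was not tested. The share of genes that fell at day 7 also varied with signal level. It was 2.31% of 7850 genes with a mean signal under 6, as Grem1 had, 15.1% of 8758 between 6 and 8, as Smad6, Smad7, Id3 and Id4 had, and 26.4% of 3303 between 8 and 10, as Bmp4 and Id1 had. It was 29.7% of 975 genes between 10 and 12, as Bmpr2 and Id2 had, and 20.4% of 1180 brighter ones.

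**Figure D4:**
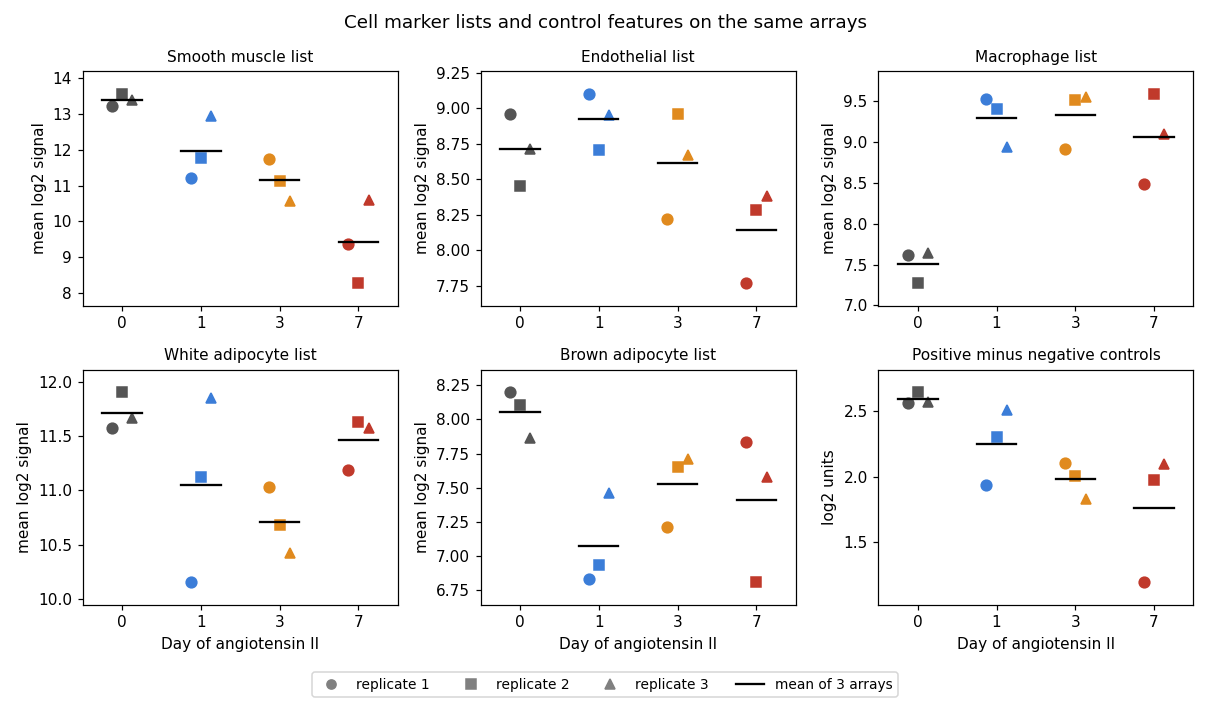
Mean log2 signal of 5 cell marker lists, and the gap between positive and negative controls, on the 12 arrays, by day of angiotensin II, with a symbol per replicate and the mean of 3 arrays as a black line. The smooth muscle list lies between 8.27 and 10.59 at day 7 and between 13.21 and 13.58 at day 0, and the control gap is lowest, at 1.20, on day 7 replicate 1.

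Profiles over the 12 arrays were set side by side as a description, since the arrays come from 4 groups and share group means and array-wide signal. Among the 10 genes the closest pairs were Id2 with Id4 (Pearson r = 0.904 over 12 arrays), Smad6 with Smad7 (0.897) and Bmpr2 with Smad6 (0.850). The 5 genes most like Id1 among all tested, leaving out predicted genes, were Per1, a repressor of the circadian clock (0.947), Klf2, a transcription factor of endothelium under flow (0.906), Chka, a choline kinase (0.905), Klf9, a Krüppel-like factor (0.903), and Nsmaf, an adaptor of the tumour necrosis factor receptor (0.882). After each group's mean was taken away, r with Id1 was 0.900 for Per1, 0.815 for Klf2, 0.956 for Chka, 0.862 for Klf9 and 0.948 for Nsmaf. The 5 were chosen for their likeness on these same arrays, so these values describe them and test nothing. On day 3 the order of arrays differed, Per1 being lowest (8.10) on replicate 2, where Id1 was highest (9.38). None of these 5 passed the F test (adjusted p from 0.107 to 0.463). The 5 genes most like Grem1 were Aass (0.915), Zc3hav1l (0.911), Mgmt (0.904), Tinag (0.894) and Zfp772 (0.886), with Grem1 itself at background.

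**Figure D5:**
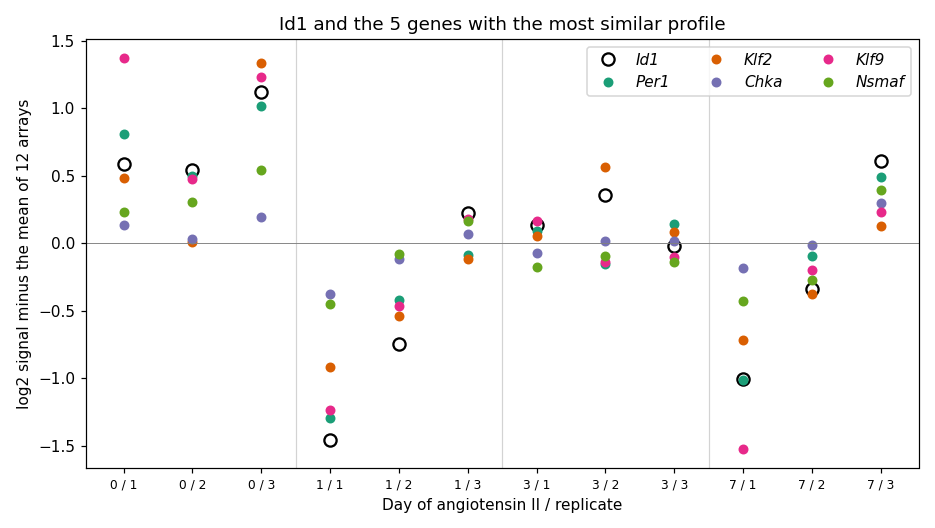
Log2 signal of Id1 and of the 5 genes with the most similar profile on each of the 12 arrays, as the difference from each gene's mean over the arrays; array labels give day and replicate. Id1 is an open circle. Within day 1 and day 7 all 6 genes are lowest on replicate 1 and highest on replicate 3.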

How the data were processed

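Total RNA of 12 mouse vessel samples was measured, 1 array each. The authors deposited log2 signals per transcript cluster, and the submitters' processing notes name Affymetrix Expression Console; the sources used here give neither its version nor the background correction and normalization. The array named in the labels is of another design than the deposited identifiers, so the annotation of those identifiers was used. Values were taken as deposited. Each gene was represented by its single-symbol cluster with the highest mean, symbols being updated through RefSeq synonyms, and kept if its signal reached 5.25, the 40th percentile over 65956 clusters, on 3 or more of the 12 arrays. The test was that of limma 3.58.1 in R 4.3.3, fitted to all 12 arrays with group means and an untrended empirical Bayes step. Benjamini-Hochberg adjustment was over 22066 genes, with a threshold of 0.05. All 10 genes are named, with up to 4 called genes per pathway list and comparison with day 0, by largest change, and the 5 genes most like Id1 and Grem1; Smad9, Bmper, Acvr1 and the pathway genes named without a call were chosen after their values were seen. The genes, gene lists, marker lists and alternatives were chosen with earlier results of these data known. Alternatives were quantile normalization, median centring, other filters, the mean of a gene's clusters, variance trend with robust estimation, a replicate block, covariates (control gap, or the mean of the adipocyte markers), the 6 arrays compared, and leaving out each array.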

Additional observations from a re-analysis of the deposited data

Results flagged for a closer look

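Of the 9 tested genes of the 10 and the 49 further pathway genes tested, 2 had all 3 arrays above day 0 at one treated day and all 3 below it at another, which 0.992% of all genes tested did. That choice fixes the sign of the difference between the days, which is given as a description. Bmp4 was above at day 1 and below at day 7, and day 7 minus day 1 was -1.97 log2 units. Acvr1, a type I receptor, did the same with a smaller difference of -0.44 for day 7 minus day 1. Its arrays read 6.88, 6.85 and 6.87 at day 0, 6.91, 7.06 and 7.16 at day 1, 6.57, 6.88 and 6.80 at day 3 and 6.41, 6.68 and 6.72 at day 7.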

How the results depend on the processing

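Each group has 3 arrays, and signal over background was lower on the treated days, so a covariate for it shares its variation with the groups. Of the 9 tested genes, those called numbered 0 at day 1, 2 at day 3 and 5 at day 7 against day 0. The control gap as a covariate gave 0 at day 3 and 0 at day 7, the adipocyte mean 0 and 2, and the 6 arrays alone 3 at day 7. The call with the largest change, Id2 at day 7, was then -2.28 with the control covariate (adjusted p = 0.106). Day 7 against day 3 gave 1 call (Bmpr2) with the control covariate, day 7 against day 1 gave 1 with it and 0 on the 6 arrays alone, and the F test gave 1 with it and 2 with the adipocyte mean. Leaving out 1 array gave 0 to 2 calls at day 1, 0 to 2 at day 3, 3 to 7 at day 7, 0 to 1 for day 7 against day 3, 0 to 4 for day 7 against day 1 and 1 to 6 in the F test. The 3 came without day 0 replicate 2. Day 3 against day 1 gave 0 calls throughout. The cause of these differences was not tested.

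Whether replicate numbers pair the arrays was not tested. Deviations from group means of same-numbered arrays correlated between -0.51 and 0.66, with 7 of 18 pairs above 0.1, and those of other pairs between -0.65 and 0.46. Of the 12 arrays, 7 were closest to their own number. With the replicate block 0, 2 and 5 of the 9 genes were called at days 1, 3 and 7, and 820, 2794 and 5781 of all genes. Over all genes, day 1 gave 799 calls as reported, 433 after quantile normalization, 436 after centring, 0 with the adipocyte mean and 209 on the 6 arrays alone. Day 3 gave 2593, against 464 with the control covariate, 15 with the adipocyte mean and 4523 on the 6 arrays alone. Day 7 gave 5570, against 771, 1632 and 2719 under the same 3 settings. Of the calls at day 1, 45.1% were lower as reported and 33.7% after centring, and at day 3 60.7% and 77.0%.

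Changes of sign occurred among the 54 gene comparisons in 47 refits, 0 of them called. With the control covariate they were, against day 0, Bmp4 at day 3 (-0.29), Bmpr2 at day 1 (0.44) and day 3 (0.36), Grem1 at day 3 (-0.22) and day 7 (-0.32), Smad6 at day 3 (0.10), Id1 at day 3 (0.46) and day 7 (0.44) and Id3 at day 7 (0.32). For day 7 against day 3 they were Grem1 (-0.0998) and Id4 (0.0765), and for day 3 against day 1 Id3 (0.0851). Centring gave them at day 3 for Bmp4 (-0.18), Grem1 (-0.0939), Smad7 (-0.12) and Id3 (-0.0881), at day 7 for Grem1 (-0.17), for Grem1 at day 7 against day 3 (-0.0781) and for Smad6 at day 3 against day 1 (-0.0603). Quantile normalization gave Bmpr2 at day 1 (0.0473), Grem1 at day 3 (-0.0962), day 7 (-0.18) and day 7 against day 3 (-0.0801). The adipocyte mean gave Bmpr2 at day 1 (0.19), Grem1 at day 3 (-0.20) and day 7 (-0.0689), Smad7 at day 1 (0.12), Id1 at day 3 (0.40) and at day 7 against day 1 (-0.0689), and Id3 at day 7 (0.0095). Leaving out 1 array, the range crossed 0 for Bmp4 at day 3 (-0.12 to 0.25), Bmpr2 at day 1 (-0.0884 to 0.125), Smad7 at day 3 (-0.11 to 0.17), Id3 at day 3 (-0.0237 to 0.226) and Id3 at day 3 against day 1 (-0.185 to 0.0477). It also did for Smad6 at day 3 against day 1 (-0.0512 to 0.172), Grem1 (-0.078 to 0.0935) and Id4 (-0.104 to 0.0436) at day 7 against day 3, and Id1 at day 7 against day 1 (-0.0101 to 0.858).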

Other observations

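Other cell marker lists were followed beside those in the report. Of 11 fibroblast markers none passed at day 1, 3 rose at day 3 and 4 at day 7. Of 8 skeletal muscle markers 6 rose at day 7 and none passed before, and of 7 cardiac muscle markers 5 did. Of 6 neutrophil markers 2 rose at day 3 and 2 at day 7, of 3 T cell markers 1 rose at day 7, and of 2 mesothelial markers none passed. Of all genes tested 4.61% rose at day 3 and 12.1% at day 7. Dimmer than the median negative control on all day 0 arrays were 5 of the 8 skeletal and 5 of the 7 cardiac muscle markers. So were 4 of the 6 neutrophil, 3 of the 3 T cell and 2 of the 2 mesothelial markers. Genes with a mean signal under 6 had a median log2 change of 0.26 at day 7. White adipocyte markers gave 1 fall at day 3 and 1 rise and 1 fall at day 7 among 9, and brown adipocyte markers gave 1 rise and 2 falls at day 1, 1 rise and 3 falls at day 3 and 2 falls at day 7 among 9.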
